A study of Mus musculus with 6 samples.

Results

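Nes, Sox2, Map2 and Tubb3 are 4 widely used marker genes, the first pair of the neural progenitor and the second pair of the neuron. They were chosen by name: every transcript in the deposited table that carries one of these gene names was taken, which gave 7 named transcripts, together with 3 unnamed transcripts that the assembler placed at the Nes locus. These 10 transcripts stand among 15113 transcripts at 7171 assembled loci. RNA was sequenced from C17.2 cells, a clonal mouse neural stem cell line held in the labels under the strain CD1 x C57BL/6. Control cells were kept in growth medium (DMEM/F12 with 10% fetal bovine serum), another group was treated with heme, and the last was put through neural induction in Knockout DMEM with GlutaMAX, N2 supplement and BDNF, a neurotrophin, at 10 ng/ml. The sources used here do not give the heme dose, the length of either treatment or the medium of the heme cells. Each group was labelled as 2 biological replicates, but the 2 heme columns held 1 set of measurements. For the 10 transcripts the heme replicate 2 value was 1.28 to 1.49 times the replicate 1 value, and over the whole table the factor lay between 1.25 and 1.5 with the same 1150 transcripts at 0. The pair was counted as 1 sample, so each heme value below is from 1 library and has no SD. Whether replicates were separate cultures is not stated, so p-values measure only the spread between these libraries.

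Nestin, the product of Nes, is an intermediate filament protein of dividing neural progenitors that is replaced by other filaments as cells mature. SOX2 is an HMG-box transcription factor that keeps progenitors self-renewing. TUBB3 is the beta-tubulin isotype of neurons, and MAP2 is a microtubule-associated protein of the cell body and dendrites that is made in long and short forms by alternative splicing. C17.2 cells were immortalized with v-myc from cerebellar progenitors.

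The transcripts listed for Nes and Map2 differ at splice sites, and the bases at those sites are shown here because the level of each form is described below. Sequences and positions are from GENCODE M21 on the GRCm38 build, plus strand. Nes lies at chr3:87971093-87980451. Nes-201 (ENSMUST00000090973) has 4 exons and 1864 codons. Nes-203 (ENSMUST00000160694) has 5 exons and 1820 codons, because it lacks 132 coding bases, or 44 codons in frame, at chr3:87976581-87976712. The missing segment was 98.5% identical to the 132 bases that follow it (chr3:87976713-87976844), and the capitals mark the 2 positions at which they differ, G30A and C120A counted from base 1 of the segment.
Nes segment: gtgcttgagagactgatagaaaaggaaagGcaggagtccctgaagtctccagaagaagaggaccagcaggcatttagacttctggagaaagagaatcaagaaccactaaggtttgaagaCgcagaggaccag
Nes next stretch: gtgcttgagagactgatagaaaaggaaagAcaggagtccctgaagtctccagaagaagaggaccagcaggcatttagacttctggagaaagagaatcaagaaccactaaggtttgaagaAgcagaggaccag
Nes-203 junction: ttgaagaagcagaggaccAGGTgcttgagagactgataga
The capitals in the junction are the 2 bases on each side of it. The segment begins with GT and ends with AG, and 41 bases around the junction, 12 before it and 29 after it, are the same at both ends of the segment. A read that lies within those bases is the same in both forms. A read that lies within the segment and covers neither of the 2 differing positions also matches the next stretch, which Nes-203 contains.

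Map2 spans chr1:66175273-66442581 in the listed transcripts. Map2-206 (ENSMUST00000114017, 15 exons, 4981 bases) and Map2-207 (ENSMUST00000114018, 13 exons, 5303 bases) have the same 1494 coding bases in 10 coding exons. They start 76334 bases apart, end 553 bases apart and share 4735 exonic bases. Both skip 3 coding exons with 4083 coding bases that the long form Map2-204 contains, the longest of them 3741 bases (chr1:66412407-66416147). Both also include a 93-base exon of 31 codons (chr1:66431527-66431619), found in 4 of the 24 GENCODE transcripts of Map2. That exon encodes the additional microtubule-binding repeat known from the MAP2D form. Map2-204 and Map2-201, a short form without this exon, are not analysed here. The junction of the listed forms and the same exon end in Map2-204 are shown with 2 bases on each side in capitals.
Map2-206 and Map2-207 junction: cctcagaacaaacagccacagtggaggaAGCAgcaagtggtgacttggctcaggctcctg
Map2-204 at the same exon end: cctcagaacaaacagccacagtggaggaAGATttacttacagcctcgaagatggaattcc
Map2 additional exon: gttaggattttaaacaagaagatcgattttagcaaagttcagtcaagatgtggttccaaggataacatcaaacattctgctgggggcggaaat
The other listed Map2 transcript, Map2-218 (ENSMUST00000156636), is 546 bases long with 5 exons. It ends inside the first coding exon after 106 coding bases, and GENCODE marks its 3' end as incomplete.

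**Figure D1:**
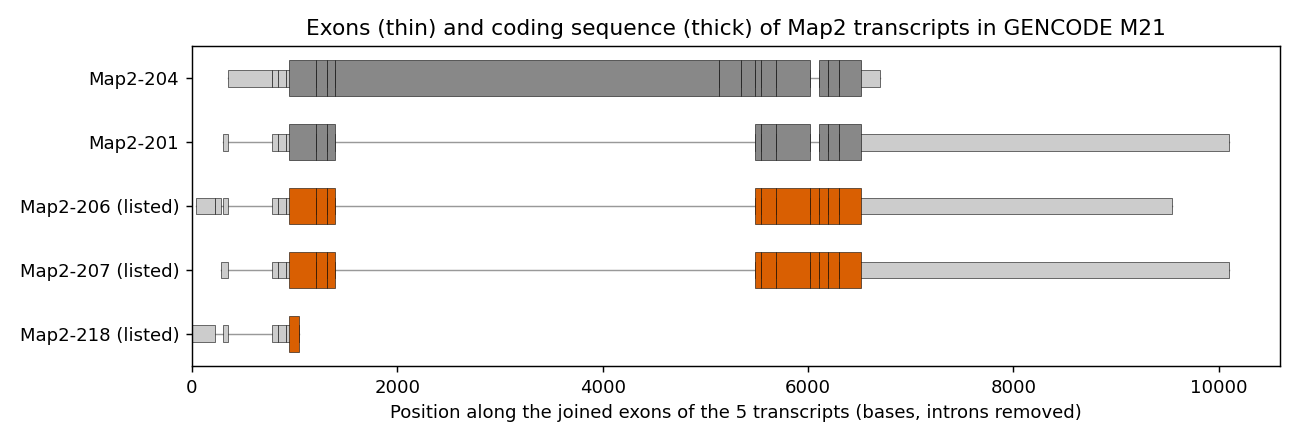
Exons of Map2 transcripts laid along their joined exons, with introns removed; the x axis is in bases, thin boxes are untranslated exon parts and thick boxes are coding. The 3 listed transcripts are in orange and 2 reference forms in grey, and only Map2-204 carries the 4083 coding bases in the middle.

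Sox2 (ENSMUST00000099151) is a single exon of 2057 bases and 319 codons at chr3:34650405-34652461. It lies within the span of the noncoding gene Sox2ot without sharing an exonic base. Tubb3 (ENSMUST00000071134) has 4 exons, 1868 bases and 450 codons at chr8:123411424-123422015. No 50-base stretch of Nes, Sox2 or Tubb3 occurred in a transcript of another gene. Of the 497 such stretches in Map2-218, 18 occurred also in Gm10558, an antisense gene that overlaps 65 exonic bases of Map2, and whether the counting used strand is not given in the sources used here.

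Levels are FPKM, fragments scaled to the length of the transcript and to library depth, and a locus is the sum of its listed transcripts. Mapped sequence per library ranged from 4.14 to 4.56 gigabases. Nes was by far the highest of the 4 genes, at 124 ± 10.0 FPKM (SD over the 5 libraries), above 91.7% to 93.4% of all loci in each library. Sox2 followed at 17.9 ± 2.47, Map2 at 13.3 ± 3.60 and Tubb3 at 12.7 ± 1.20 FPKM. The last 3 lay close together: Sox2 was above Tubb3 in every library, whereas Map2 and Tubb3 changed order between libraries. In the heme library Map2 and Sox2 both read 18.6 FPKM.

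**Figure D2:**
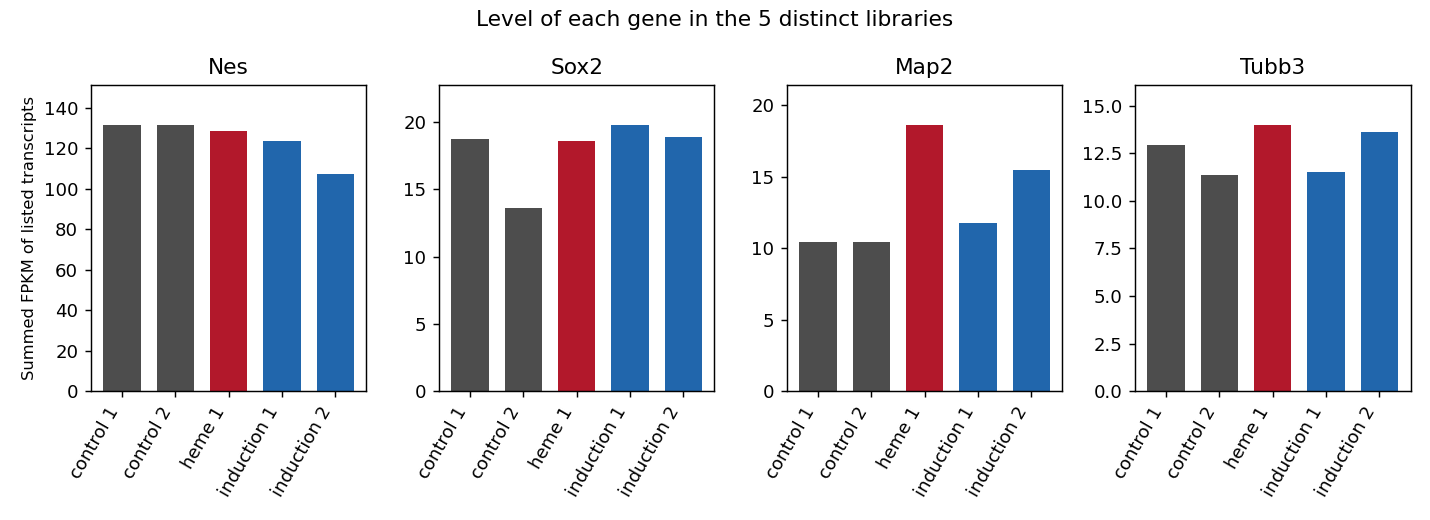
Summed FPKM of each gene (y axis, linear from 0, scaled per panel) in control, heme and neural induction libraries, 1 bar per library. Map2 is highest in the heme library at 18.6 FPKM and lowest in both controls at 10.4, while the other genes vary by at most 1.46 times.

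None of the 4 genes passed the test in any of the 3 contrasts (limma on log2(FPKM + 1), Benjamini-Hochberg adjusted p below 0.05 over 7039 loci). The test called very few loci of any kind: 0.0426% in heme against control, 0.0142% in neural induction against control and 0.0568% in heme against neural induction. At an unadjusted p below 0.05, the same contrasts held 3.59%, 3.05% and 3.38% of loci. Map2 was the 1 gene of the 4 under that limit, and only in heme against control. With 2 libraries against 2, no exact permutation test can give a p below 0.333.

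Nes stood at 131.51 and 131.53 FPKM in the controls, 128 in the heme library, and 123 and 108 after induction. Both induction libraries were below both controls, as were 13% of all loci, and the 2 induction libraries differed more from each other than the first of them did from the controls. The log2 fold change after induction was -0.19 ± 0.091 (SE, limma 95% interval -0.43 to 0.052, adjusted p = 0.935), and -0.091 without neural induction replicate 2. With heme it was -0.035 ± 0.11 (interval -0.33 to 0.26, adjusted p = 0.998). The heme library was just below both controls, as were 31.1% of loci. Neural induction replicate 2 was lower than replicate 1 by a log2 difference of -0.20, the size of the group difference itself.

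Sox2 read 18.7 and 13.6 FPKM in the controls, 18.6 with heme, and 19.8 and 18.9 after induction. Control replicate 2 stood alone at the low end, and the other 4 libraries lay within 18.6 to 19.8. The log2 fold change was 0.26 ± 0.18 after induction (SE, limma interval -0.22 to 0.74, adjusted p = 0.935). Without control replicate 2 it was 0.045. With heme it was 0.21 ± 0.22 (interval -0.38 to 0.79, adjusted p = 0.998), and without control replicate 2 it turned to -0.011. That control was the lowest library for 32.8% of all loci. It was also lowest for 6 of 10 proliferation genes, whose summed level there was 506 FPKM against 591 to 635 in the other libraries. Mki67, a marker of cycling cells, read 15.7 FPKM in it and 28.2 to 33.8 elsewhere, and was named after its values were seen. The proliferation genes not lowest in that control were Aurkb, Mcm2, Mcm5 and Pcna. Of these, Mcm2 read 43.7 FPKM there and 40.4 to 45.2 elsewhere. The part of these differences in the Sox2 result was not tested.

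Tubb3 read 12.9 and 11.3 FPKM in the controls, 14.0 with heme, and 11.5 and 13.6 after induction. The induction and control libraries overlapped in range, and the heme library was above both controls, as were 25.5% of loci. The log2 fold change was 0.042 ± 0.15 after induction (SE, limma interval -0.37 to 0.45, adjusted p = 0.982) and 0.19 ± 0.19 with heme (interval -0.31 to 0.70, adjusted p = 0.998). Leaving out neural induction replicate 2 gave -0.070 for induction, so its sign was not fixed by the data.

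Map2 read 10.4 FPKM in each control, 18.6 with heme, and 11.7 and 15.4 after induction. All 3 treated libraries were above both controls, with the heme library highest and 1.79 times the lowest control. The heme library was above both controls for 25.5% of all loci, and the share with all 3 treated libraries above was not computed. Of all loci with a mean of at least 5 FPKM, 12.6% had a larger ratio between their highest and lowest library. With heme the log2 fold change was 0.78 ± 0.21 (SE, limma interval 0.22 to 1.34, unadjusted p = 0.0172, adjusted p = 0.989), and 3.32% of loci had a larger one. Leaving out control replicate 1 or 2 left this value at 0.78 but raised its unadjusted p to 0.0682 and 0.0689. After induction it was 0.34 ± 0.17 (interval -0.12 to 0.80, adjusted p = 0.935), where 18.2% of loci had both induction libraries above both controls. Heme against induction gave 0.44 ± 0.21 (interval -0.12 to 1.00, adjusted p = 1), so the 2 treatments were not separated by this test. Without neural induction replicate 1 that value was 0.25.

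The Map2 sum depends on how the short transcript is weighed. Map2-218 took 38.8% to 49.8% of the summed FPKM but, because FPKM divides by length, only 6.48% to 9.76% of the fragments at the locus. Of its 546 bases, 506 are shared with Map2-206 and 323 with Map2-207. Both shares therefore depend on how reads were assigned between the forms, which was not tested. Counted as FPM (FPKM multiplied by transcript length in kilobases, so no longer per length), Map2 read 29.0 and 29.5 in the controls, 55.5 with heme, and 38.3 and 51.4 after induction. On that scale the log2 fold change after induction was 0.59 ± 0.17 (SE, limma interval 0.099 to 1.08, unadjusted p = 0.0290, adjusted p = 0.940). Without neural induction replicate 2 it was 0.38 with an unadjusted p of 0.128, and without either control the p was 0.117 or 0.109. With heme it was 0.90 ± 0.21 (interval 0.31 to 1.50, unadjusted p = 0.0139, adjusted p = 0.803), and heme against induction gave 0.32 ± 0.21 (interval -0.28 to 0.91). The limma test on this scale called 0% of 6960 loci in all 3 contrasts, with 4.07%, 3.1% and 3.58% at an unadjusted p below 0.05. The other genes hardly depended on the scale: in FPM, Nes, Sox2 and Tubb3 had log2 fold changes of -0.19, 0.27 and 0.044 after induction and -0.039, 0.21 and 0.20 with heme.

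**Figure D3:**
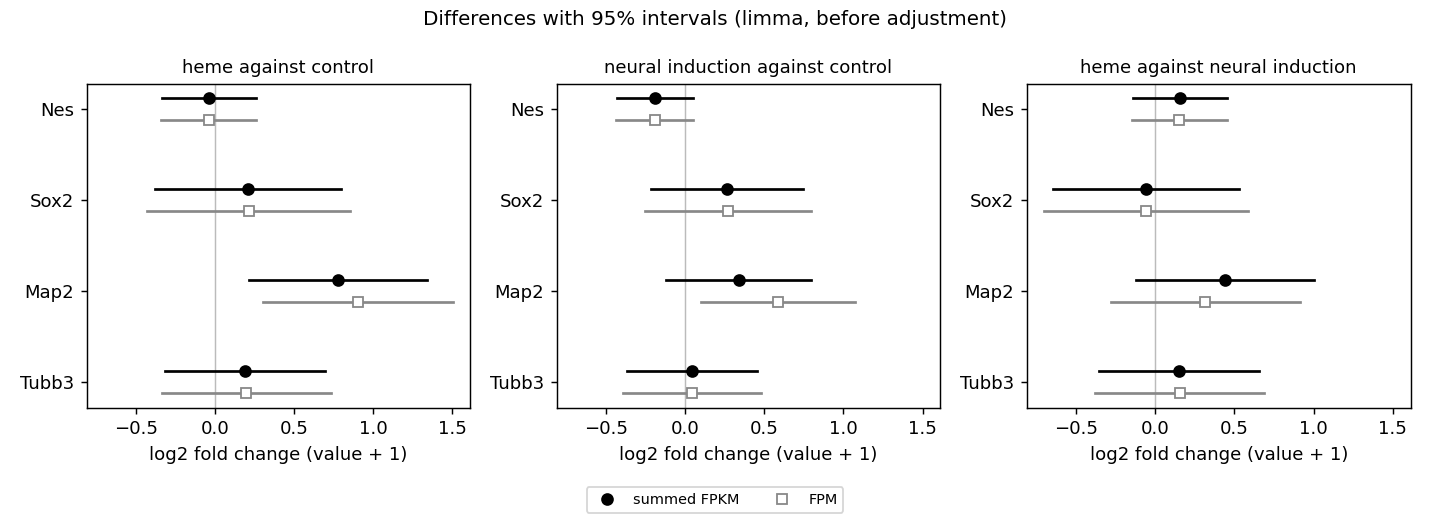
Log2 fold changes of the 4 genes in 3 contrasts, with limma 95% intervals before adjustment; filled circles are summed FPKM and open squares are FPM, each with 1 added before the log. Only the Map2 intervals lie off 0: in heme against control on both scales (0.22 to 1.34 and 0.31 to 1.50) and after induction in FPM (0.099 to 1.08).

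Between the Map2 transcripts, the split changed far more than the total in a single library. Map2-206 read 4.82 and 5.13 FPKM in the controls, 9.05 with heme, and 6.90 and 1.63 after induction. Map2-207 read 0.406 and 0.216 in the controls, 1.10 with heme, and 0.270 and 7.52 after induction. In 4 libraries Map2-206 held 81.2% to 89.8% of the fragments at the locus, whereas in neural induction replicate 2 it held 15.8% and Map2-207 held 77.5%. Map2-206 and Map2-207 share 4735 exonic bases, and the assignment of reads between them was not tested. The sum of both, which encode the same protein, was more even, at 5.22 and 5.34 FPKM in the controls, 10.2 with heme, and 7.18 and 9.15 after induction. For Map2-206 the 2 induction libraries lay on opposite sides of the controls, whereas for Map2-207 replicate 1 lay within the control range and only replicate 2 was above it. Their limma log2 fold changes after induction, -0.39 ± 0.67 for Map2-206 and 1.33 ± 1.10 for Map2-207, rest on these unlike libraries. Without neural induction replicate 1 the value for Map2-207 was 2.70. Map2-207 entered the test only because it reached 1 FPKM in the heme library and neural induction replicate 2, where it was high. Both controls were below 1 FPKM, so its rise over control is not read as a result. Map2-218 read 5.18 and 5.11 FPKM in the controls, 8.46 with heme, and 4.55 and 6.28 after induction. With heme, Map2-206, Map2-207 and Map2-218 had log2 fold changes of 0.75 ± 0.82, 0.68 ± 1.34 and 0.62 ± 0.45.

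**Figure D4:**
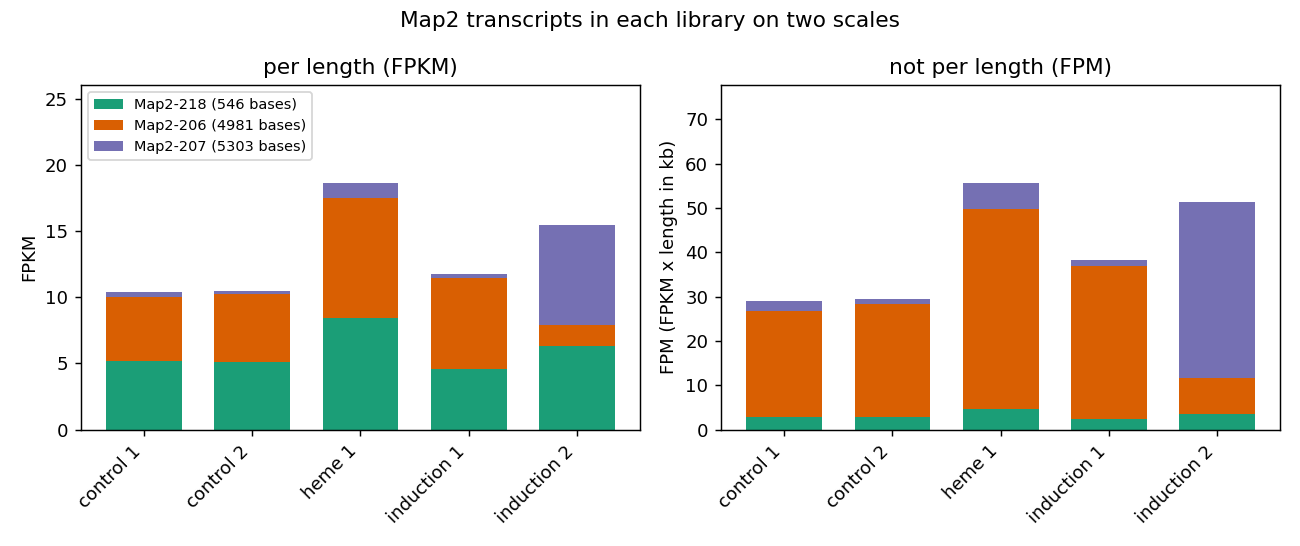
Stacked levels of the 3 listed Map2 transcripts in each library, as FPKM on the left and as FPM on the right, both linear from 0. Map2-218 is a large part of the bar only on the FPKM scale. In neural induction replicate 2, 77.5% of the fragments are assigned to Map2-207, and the assignment between it and Map2-206 was not tested.

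Nes-203, the form without the repeat segment, was the main listed Nes transcript in every library, with 53.9% to 74.3% of the summed FPKM. It read 73.1 and 86.0 FPKM in the controls, 69.2 with heme, and 72.5 and 79.9 after induction. Control and induction overlapped. The heme library was below all 4 of the others. By locus sums it was the lowest library for 19.96% of all loci, and the share over transcripts was not computed. That order is therefore only a description of 1 library. Nes-201, the form with the segment, read 7.36 and 7.94 in the controls, 6.07 with heme, and 7.31 and 3.50 after induction, or 3.26% to 6.04% of the sum. Because much of the segment matches the stretch after it, these shares depend on how reads were assigned between the forms, which was not tested. The limma log2 fold changes after induction were -0.059 ± 0.12 for Nes-203 and -0.50 ± 0.45 for Nes-201. With heme they were -0.19 ± 0.15 and -0.29 ± 0.55.

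Of the 3 unnamed Nes transcripts, MSTRG.12556.4 had the widest range at the locus. This transcript, which is 132 bases shorter than Nes-203, read 22.8 and 1.75 FPKM in the controls, 23.5 with heme, and 14.7 and 1.51 after induction. It was high in 3 libraries and low in replicate 2 of both the control and the induction group, a 15.6-fold range that cut across the groups. Added to Nes-203, it gave 95.9 and 87.7 FPKM in the controls, 92.7 with heme, and 87.2 and 81.4 after induction, a range of 1.18 times. MSTRG.12556.1 read 16.6 to 20.1 FPKM in 4 libraries and 5.05 in neural induction replicate 2. MSTRG.12556.5 read 9.85 to 17.6 FPKM, a range of 1.78 times that was narrower than the 2.27 times of Nes-201. None of the 10 transcripts passed the limma test in any contrast, in which 0.0728%, 0.00728% and 0.0801% of 13737 transcripts did (heme against control, induction against control and heme against induction).

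**Figure D5:**
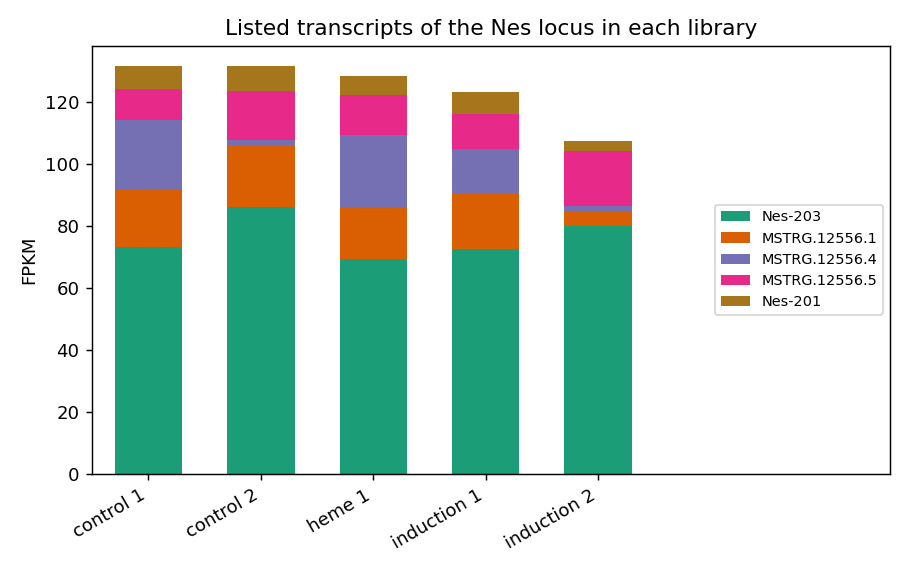
Stacked FPKM (y axis, linear from 0) of the 5 transcripts at the Nes locus in each of the 5 libraries. The total ranges from 108 FPKM in neural induction replicate 2 to 132 in the controls. MSTRG.12556.4 ranges from 1.51 in neural induction replicate 2 to 23.5 in the heme library, and reads 1.75 in control replicate 2.

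In the authors' deposited table of fold changes, the lowest p-value among the 10 transcripts over both comparisons was 0.173, for MSTRG.12556.4 after induction. Its deposited log2 fold change was -0.65, against -0.63 between the replicate 1 libraries, so that p-value is not read here as a test over the replicates. The authors' deposited table gives Map2-206 a log2 fold change of 0.87 with heme, where the 2 replicate 1 libraries alone differ by 0.91, and -0.44 for Map2-207 after induction, against -0.59 between the replicate 1 libraries. That deposited value for Map2-207 is negative, whereas the transcript read 7.52 FPKM in neural induction replicate 2 and at most 0.406 in the controls.

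The 4 genes belong to lists of progenitor and neuronal genes, and the counts and medians of these lists include them. Of 26 progenitor genes, 8 were in the table, Nes and Sox2 among them, and none passed in either contrast against control (limma). Their median log2 fold change was 0.083 with heme and -0.019 after induction, against -0.0035 and 0.019 over all loci. Vimentin (Vim), a filament protein that pairs with nestin, read 663 to 798 FPKM, and N-cadherin (Cdh2), an adhesion molecule of neuroepithelium, 55.3 to 64.0. Id3, an inhibitor of bHLH differentiation factors, read 42.7 to 48.4. Of 35 neuronal genes, 6 were in the table and 5 could be tested at a locus of their own, with none passing. The median with heme was 0.19, which is the value of Tubb3 itself, and the median after induction was 0.073. In each contrast 4 of the 5 were above control, as were 49.2% of all loci with heme and 54.7% after induction. Map2 and Tubb3 are 2 of those 4, Ncam1 and Dpysl3 are the other two, and Map1b was at -0.0024 and -0.076. Dpysl3, a growth cone protein, read 63.9 to 86.3 FPKM, Ncam1, a neural adhesion molecule, 15.9 to 31.0, and Map1b, a microtubule-associated protein of growing axons, 19.4 to 21.9. L1cam shares its assembled locus with another gene and is given no value.

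Map2 and Tubb3 were also set among 13 measured genes of microtubule binding and axon growth out of 21 listed. None passed, and the medians were -0.0020 with heme and 0.042 after induction, with 6 and 9 genes above control. The most abundant were Dpysl3, Stmn1 (a tubulin-sequestering protein, 63.0 to 83.4 FPKM), Kif5b (a kinesin heavy chain, 47.5 to 52.1) and Map4 (the broadly expressed relative of MAP2, 35.8 to 42.7). Among 7 measured intermediate filament, lamin and linker genes of 17 listed, none passed either. Their medians were 0.10 and 0.11, and Nes was the lowest of them after induction. Lmna read 188 to 217 FPKM and Plec 27.7 to 37.2.

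The labelled cell type was checked against markers of other lineages. Nes, Sox2 and Vim were present at the levels above in all 5 libraries. The 4 most abundant mesenchymal genes at a locus of their own were above Nes in every library: S100a4 read 1726 to 1860 FPKM, Col1a1 807 to 1075, Acta2 725 to 844 and Fn1 676 to 752. Of 14 such genes 9 were in the table, 8 of them at a locus of their own, with summed levels of 4675 to 5405 FPKM and median log2 fold changes of 0.15 with heme and 0.17 after induction. The lowest of the 8 was Tagln, at 1.85 to 5.04 FPKM. Control replicate 2 was the lowest library for 7 of the 8. Of the oligodendrocyte genes, Sox10, a transcription factor of that lineage and of neural crest, read 26.3 to 38.4 FPKM and Cnp, a myelin-associated enzyme, 6.83 to 10.6. Of 10 astrocyte genes only Gja1, a gap junction gene that many cell types express, was in the table, at 70.1 to 87.3 FPKM (0.10 with heme, 0.19 after induction). All 10 proliferation genes were measured, with medians of 0.13 and 0.14, and the most abundant were Cdk1 (86.4 to 136 FPKM), Ccnd1 (90.0 to 100.2), Pcna (66.2 to 89.1) and Top2a (70.0 to 87.7). None of 6 microglial and 10 erythroid genes was in it, and they are not analysed here. None of these lists had a member that passed against control, and their part in the results for the 4 genes was not tested. In bulk RNA, fewer cells that express a gene and less RNA per cell cannot be told apart.

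The loci whose levels followed each gene most closely over the 5 libraries were found by the root mean square difference of centred log2(FPKM + 1), among 5457 named loci. For Sox2 they were Fzr1 (0.013), Gpsm2 (0.014) and Lmnb1 (0.021), which share its low value in control replicate 2. For Nes they were Heatr6 (0.025), Dlg1 (0.027) and Agfg1 (0.029), and for Tubb3 they were Spg20 (0.018), Tom1l2 (0.019) and Tmem214 (0.026). The genes' own root mean square variation on this scale was 0.18 for Sox2, 0.11 for Nes, 0.11 for Tubb3 and 0.31 for Map2, so a locus with little variation is already close to Nes and Tubb3. For Map2 the closest loci were Pgls (0.069), Tpst2 (0.091) and Calcoco1 (0.096). Pgls, a pentose phosphate pathway enzyme, read 17.4 and 16.4 FPKM in the controls, 33.2 with heme, and 18.8 and 24.7 after induction. The points are 5 libraries that share preparation and depth, and the likeness is a description only.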

How the data were processed

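RNA-seq libraries were made with a TruSeq RNA kit from total RNA, per the labels' protocols. The tools named in the submitters' processing notes are HISAT2, StringTie and edgeR, without versions, and the build is GRCm38 (mm10). The authors deposited FPKM and mean coverage (a signal per base) for each assembled transcript. For heme and for induction they also deposited p-values, log2 fold changes, log2 abundance and a test score, per the file headers. How transcripts entered the table is not stated. Dividing coverage by FPKM gave the mapped gigabases. Read length is unknown, so no counting interval is given. All per-sample columns were used.

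Locus sums and transcripts were tested with limma 3.58.1 (R 4.3.3; lmFit, contrasts.fit and eBayes, trend on) after log2(FPKM + 1), which understates changes of low transcripts. A row needed 1 FPKM or more in 2 or more libraries. All 5 distinct libraries entered 1 model, so the single heme library is taken to vary as the other groups do. P-values are two-sided, were adjusted over all rows by Benjamini and Hochberg's method, and were held against a threshold of 0.05. The fit was tested on simulated data, with large changes placed only in neural induction against control. That test does not cover changes as small as those of the member genes, or the heme contrasts.

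The members and gene lists were chosen with earlier results of these data known. Named beside the 4 genes are the 4 most abundant members of each list, passing over genes at shared loci, any member with an adjusted p below 0.05, and the 3 most alike loci per gene. Mki67, Aurkb, Mcm2 and Mcm5 were named after their values were seen. 1 member of the oligodendrocyte list, with that list's summary, is not reported here. Alternatives covered the heme columns used, the pseudocount (0.1), the filter, library scaling, the trend, a replicate block and each left-out library. FPM (FPKM times length in kilobases) and Map2 without its 546-base transcript were added after seeing the data. Structures and sequences came from GENCODE M21.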

Additional observations from a re-analysis of the deposited data

How the results depend on the processing

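Using both heme columns adds a scaled copy as a replicate. It moved the median log2 fold change of all loci with heme to 0.21 and called 146 loci higher and 61 lower with heme and 25 higher and 26 lower after induction (limma). In that fit Map2 had a log2 fold change of 1.01 with heme (adjusted p = 0.0166, with 0.0166 to 1.00 over its alternatives). This made 1 of the 4 genes pass. In FPM the Map2 value was 1.18, and the lowest limma adjusted p over the alternatives on that scale was 0.0017. Nes turned to 0.21 with heme, Nes-203 to 0.054 and Sox2 to 0.14 for heme against induction. With the mean of both heme columns the same values were 0.24, 0.075 and 0.15, and the median of all loci was 0.23. These values contain the shift of the median.

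Leaving out 1 library at a time (for the heme library, putting its scaled copy in its place) changed signs as follows. With heme, Nes ranged from -0.035 to 0.46, Sox2 from -0.011 to 0.59, Nes-201 from -0.34 to 0.021 and Nes-203 from -0.31 to 0.30. After induction, Tubb3 ranged from -0.070 to 0.15, Map2-218 from -0.15 to 0.25, Map2-206 from -1.18 to 0.41, Nes-203 from -0.17 to 0.057 and MSTRG.12556.4 from -1.92 to 1.19. Sox2 for heme against induction ranged from -0.087 to 0.33. The scaled copy moved the median of all loci to 0.43 with heme and to 0.42 for heme against induction. The upper ends of Nes, Sox2 and Map2 in both contrasts come from that copy and contain this shift. Map2 kept its sign, from 0.78 to 1.24 with heme, from 0.15 to 0.52 after induction and from 0.25 to 0.90 for heme against induction. In FPM, Map2 ranged from 0.89 to 1.45, from 0.38 to 0.79 and from 0.11 to 0.86 in these contrasts. After induction, Nes ranged from -0.29 to -0.091, Sox2 from 0.045 to 0.48 and Nes-201 from -0.94 to -0.056. Map2-207 ranged from 1.23 to 2.70 after induction. All fits of Map2-207 hold neural induction replicate 2, without which it fails the filter. No left-out library made a member pass.

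Without the intensity trend, 14 loci were higher and 13 lower after induction, none of them a member. Same-numbered control and induction replicates did not deviate together (correlation -0.051), so the numbers were not taken as pairs. The single heme library could not enter that correlation. Its median absolute log2 difference from control replicate 1 over the tested loci was 0.089. Between the controls this median was 0.21, and between the induction libraries 0.10. The reason for the wider control spread was not tested. With a replicate block, 4 loci were called with heme and 2 after induction, and Map2 had a log2 fold change of 0.87 with heme (adjusted p = 0.893) and 0.34 after induction. Without its shortest transcript the Map2 value after induction was 0.54 (unadjusted p = 0.0468, adjusted p = 0.935). The 2 residual degrees of freedom limit every test here.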
